A study of Mus musculus with 6 samples.

Results

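Granzymes and the other cytotoxic effectors are the proteins with which lymphocytes kill target cells. The 10 genes described here are Gzma, Gzmb, Gzmc, Gzmd, Gzmk, Gzmm, Prf1, Nkg7, Fasl and Ctsw. They were chosen by gene family, with the signals of these same arrays already known, above all those of Gzma and Gzmb. Their differences between the groups are therefore descriptions, without a test of their own. The 10 genes have 13 probe sets that the array annotation gives to a single gene symbol, out of 45037 probe sets and 18193 such genes.

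The arrays measured RNA of mouse bone marrow cells sorted as lineage-negative and Sca1-positive, a fraction enriched for blood stem cells and early progenitors. WT mice were compared with DKO mice, which lack both Nr4a1 and Nr4a3, nuclear receptors that cells induce rapidly after stimulation. DKO mice were bred from the 2 single knockouts on a hybrid of C57BL/6 and 129SvJ, and the labels list no strain for the WT mice. There were 3 arrays of WT and 3 of DKO, each from its own RNA pool of 10 to 20 mice, all 2 to 3 weeks old, and the spread is that between pools. The DKO mice carried the knockouts in all their cells, not in the blood lineage alone. The comparison addresses the NR4A receptors in stem cell homeostasis. It shows which transcripts of the sorted fraction differ between the groups, not which transcripts of stem cells depend on the receptors.

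Cytotoxic lymphocytes, which are natural killer (NK) cells and killer T cells, store perforin and granzymes in secretory granules. On contact with a target the granule content is released, perforin opens the target's membrane, and granzymes enter and cleave proteins that start cell death. Fas ligand acts separately, by engaging the Fas receptor on the target. Mast cells and basophils make related granule proteases.

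Signal is the authors' linear array intensity, and differences are DKO minus WT of log2(signal + 16) with their standard error (SE) from the fit over the whole table. Values ± SD are over 3 arrays. A probe set was tested if its mean over the 6 arrays exceeded a limit equal to a signal of 53.2, and it passed if its adjusted p over all tested probe sets was under 0.05 (limma, Benjamini-Hochberg). Of the 13 probe sets 7 were tested, 1 for each of Gzma, Gzmb, Gzmk, Prf1, Nkg7, Fasl and Ctsw. The other 6 were too dim, and these include every probe set of Gzmc, Gzmd and Gzmm. Gzmb and Gzmk were under the limit on all 3 WT arrays and were tested through their DKO signals, so they had to differ.

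Array medians ranged from 91.6 to 122, and the number of arrays limits the precision. Nr4a1, which checks the labels, had its lowest WT signal at 816.3 and its highest DKO signal at 33.8. The 3 probe sets of Nr4a3 were below the limit and do not check them. WT replicate 2 stood apart by its neutrophil markers, whose summed signal was 97073 against 18775 to 57287 on the other arrays, so the members are also given without it. Fewer cells of a type and less RNA per cell cannot be told apart in these pools.

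Gzma and Gzmb were far higher in DKO, while no other granzyme passed. Gzma, a tryptase-like granzyme, had WT signals of 133.2, 603.3 and 349.6 in replicates 1 to 3 and DKO signals of 4547.0, 5273.0 and 6529.9. The lowest DKO array was thus far above the highest WT array. Means were 362 ± 235 and 5450 ± 1003 (SD, n = 3 each), a log2 difference of 4.06 ± 0.41 (SE) or 16.7-fold on the offset scale.

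Gzmb cleaves after aspartate and activates caspases and Bid in the target cell. Its WT signals were 38.5, 1.4 and 17.6, all dim, and its DKO signals were 653.0, 745.7 and 1131.3. Means were 19.2 ± 18.6 and 843 ± 254, and the log2 difference was 4.72 ± 0.49. Since WT was near the floor, this size rests on the offset: it was 6.09 with an offset of 1 and 3.44 with an offset of 64. Among the WT arrays replicate 2 was the highest for Gzma and the lowest for Gzmb. Without that array the differences of Gzma and Gzmb were 4.53 and 4.29.

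Gzma and Gzmb were the 2 member probe sets that passed, both higher. Among all 27022 tested probe sets 0.807% passed in that direction. Because Gzma and Gzmb were known to be high in DKO when the genes were chosen, nothing is read from that count.

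Gzmk, a tryptase-like granzyme whose gene neighbours Gzma on chromosome 13, had higher signals in DKO without passing. Its WT signals of 40.3, 49.9 and 43.5 were close together and dim, and its DKO signals of 102.2, 186.4 and 326.8 were spread out. The groups did not overlap, but the log2 difference of 1.74 ± 0.48 did not pass. Its 95% interval, which is not adjusted for the number of probe sets, ran from 0.69 to 2.79. Without WT replicate 2 the difference was 1.80.

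Gzmm, which cleaves after methionine or leucine, showed no separation of the groups. Its WT signals were 27.1, 58.0 and 14.3 and its DKO signals 53.8, 22.2 and 25.3, with the highest value in WT. The log2 difference of 0.06 ± 0.50 had a wide interval, from -1.04 to 1.17, and was 0.41 without WT replicate 2. The probe set was too dim to be tested, and 3 arrays a group at this signal cannot show a small difference.

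Gzmc and Gzmd, granzymes of the expanded mouse cluster that also holds Gzmb, were dim in every array. For Gzmc the WT signals were 10.0, 20.6 and 6.1 and the DKO signals 23.9, 24.3 and 26.3. All DKO arrays were above all WT arrays, but every value was under the limit, and the difference was 0.56 ± 0.36 with an interval from -0.23 to 1.36 (0.77 without WT replicate 2). Gzmd was at the floor of the scale, between 0.2 and 0.9 at one probe set (1420343_at) and between 0.5 and 4.1 at the other (1420344_x_at), with differences of 0.02 and 0.08 without WT replicate 2. A further probe set, shared by Gzme and Gzmd in the annotation and not counted among the 13, lay between 0.4 and 11.7. Probes of these near-identical genes can bind each other's transcripts, so their signals cannot be assigned to Gzmd alone.

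**Figure D1:**
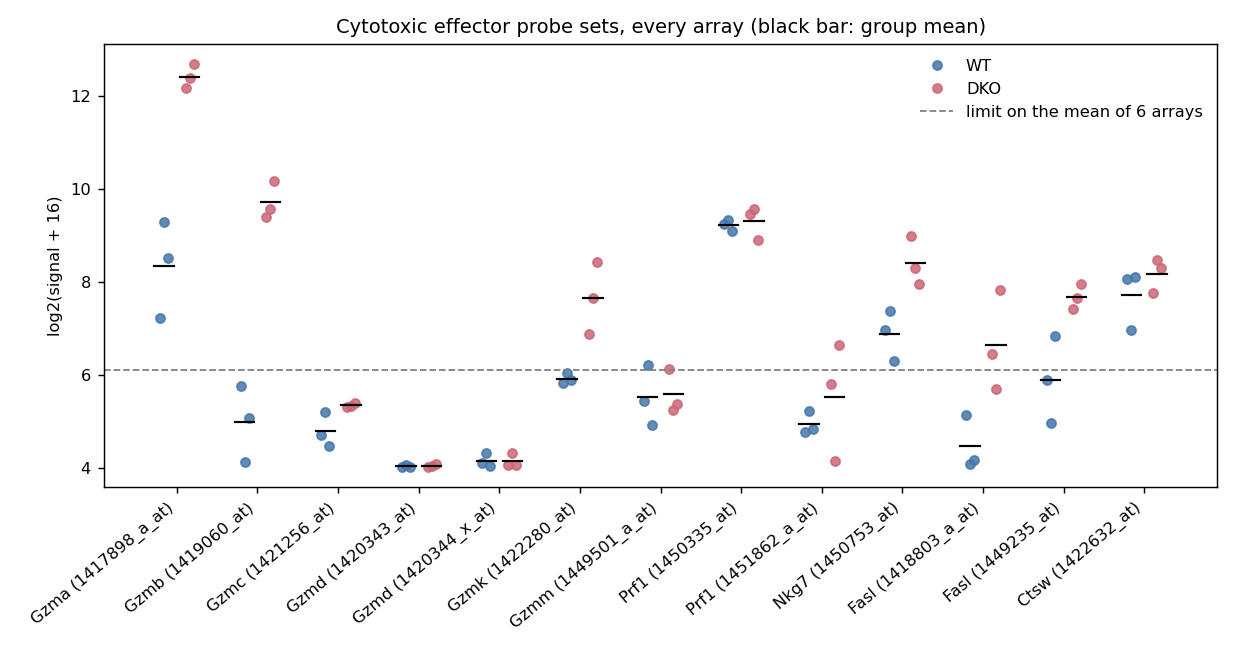
Each point is 1 array, as log2(signal + 16), for the 13 cytotoxic effector probe sets in WT and DKO, with a black bar at the group mean and a dashed line at the limit for testing. Gzma and Gzmb are the probe sets with the widest gap between the groups, Gzmd sits at the floor in all arrays, and the brighter Prf1 probe set overlaps.

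None of the effectors other than granzymes passed. The groups separated without overlap for Nkg7 and Fasl, and overlapped for Prf1 and Ctsw. Perforin, Prf1, forms the pore through which granzymes act. At its bright probe set (1450335_at) the WT signals were 592.7, 624.8 and 527.7 and the DKO signals 681.4, 742.2 and 459.2. The highest and the lowest value were both in DKO. The log2 difference was 0.08 ± 0.29 with an interval from -0.54 to 0.71, so a rise as large as that of Gzma or Gzmb lay far outside it. The second Prf1 probe set (1451862_a_at) was dim, at 11.2, 21.4 and 12.7 in WT and 39.5, 1.7 and 83.8 in DKO. It also overlapped, at 0.58 ± 0.58 with an interval from -0.70 to 1.87, so neither Prf1 probe set separated the groups. The probe sets were far apart in signal, and which of them follows the perforin transcript was not tested. Without WT replicate 2 the log2 differences at the bright and the dim probe set were 0.13 and 0.72.

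Nkg7, a granule membrane protein that killer lymphocytes need for efficient release, had higher signals in DKO. The WT signals were 109.0, 148.5 and 62.6 and the DKO signals 488.7, 296.6 and 231.5, with no overlap. The log2 difference of 1.53 ± 0.44, with an interval from 0.58 to 2.49, did not pass, and it was 1.78 without WT replicate 2.

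Fasl, the ligand of the Fas death receptor, had higher signals in DKO at both of its probe sets. At the tested probe set (1449235_at) the WT signals were 43.4, 15.1 and 98.1 and the DKO signals 155.8, 184.8 and 232.5. The groups did not overlap there, and the log2 difference of 1.78 ± 0.52 did not pass. At the dimmer one (1418803_a_at) the WT signals were 19.1, 0.9 and 2.1 and the DKO signals 70.9, 35.5 and 209.2. The difference there, 2.18 ± 0.60, depended on the offset, with 4.06 at an offset of 1 and 1.12 at an offset of 64. Without WT replicate 2 the differences were 1.31 at the tested and 1.99 at the dimmer probe set.

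Ctsw, cathepsin W, a cysteine protease of NK cells and killer T cells, overlapped between the groups. Its WT signals were 251.3, 109.6 and 260.4 and its DKO signals 200.5, 338.8 and 298.0. The log2 difference was 0.46 ± 0.42 with an interval from -0.46 to 1.38, and without WT replicate 2, the lowest array, it was 0.09.

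Taking all 13 probe sets, dim ones included, every DKO array was above every WT array in 7, which belong to Gzma, Gzmb, Gzmc, Gzmk, Nkg7 and Fasl. In the other 6 the groups overlapped. Of all 45037 probe sets 7.70% had every DKO array above every WT array. The contrast was known when the genes were chosen, so this share is given as background and nothing is read from it. The median log2 difference of the 13 probe sets was 0.58, against -0.03 over all probe sets.

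**Figure D2:**
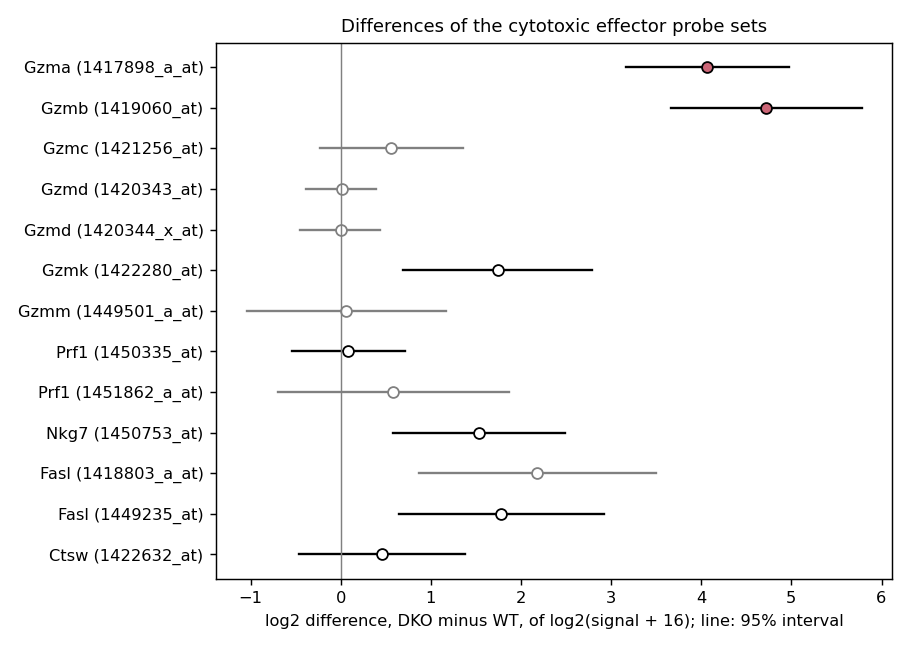
The horizontal axis gives the log2 difference, DKO minus WT, of log2(signal + 16) for the 13 cytotoxic effector probe sets, with a line for its 95% interval. Filled points passed over the whole table (Gzma at 4.06 and Gzmb at 4.72), open black points were tested and did not pass, and grey points were too dim to be tested and come from the fit without that limit.

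Gzmb, Gzmc and Gzmd lie in a cluster of granule protease genes on chromosome 14. In the RefSeq gene order it runs from the mast cell chymase gene Cma1 through the Mcpt genes, Ctsg, Gzme, Gzmd, Gzmg, Gzmn, Gzmf and Gzmc to Gzmb. Within this row 3 genes passed, all higher in DKO, at both ends of the granzyme stretch. Ctsg, cathepsin G of primary granules, rose from signals of 703.8, 2329.8 and 522.3 to 8181.5, 5880.8 and 10921.7 (log2 3.06 ± 0.44, adjusted p = 0.00602). Its neighbour Mcpt8, a basophil protease, rose from 47.5, 202.0 and 103.2 to 1680.3, 1779.9 and 1711.6 (log2 3.88 ± 0.41, adjusted p = 0.00101). Without WT replicate 2, which had the highest WT signal of both, they were 3.70 and 4.32. Gzmb lies at the far end. The 6 granzyme genes between Ctsg and Gzmb were all too dim to be tested. Their highest signal on any array was 69.8, for Gzmf in DKO replicate 1. Cma1, at the other end, overlapped between the groups (0.08 ± 0.45, adjusted p = 0.965).

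**Figure D3:**
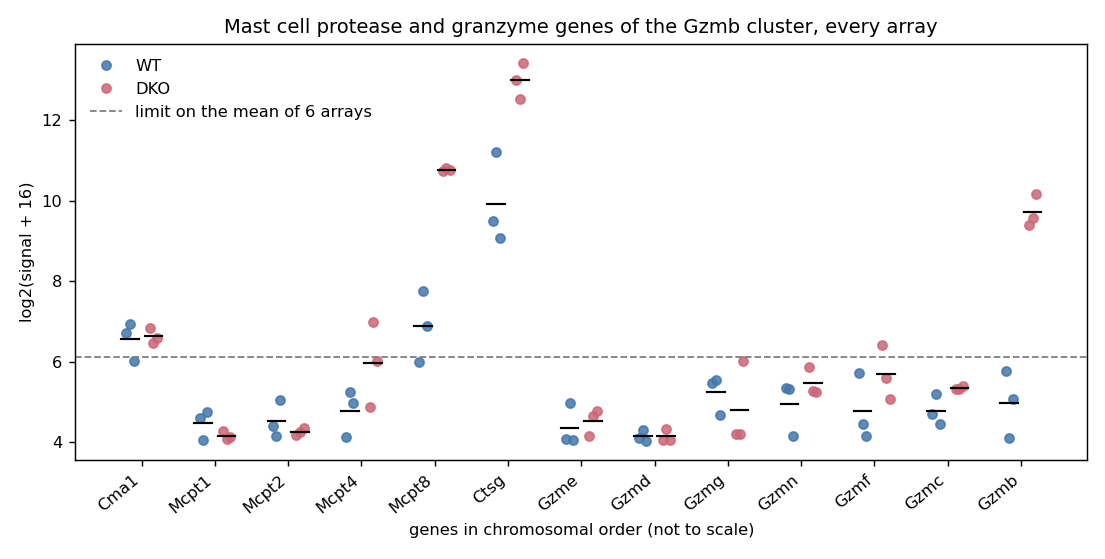
Signals of the 13 cluster genes with a probe set named for them alone, as log2(signal + 16) with 1 point per array, are set in the order of the genes on chromosome 14 (positions not to scale). Mcpt8, Ctsg and Gzmb are well above the dashed limit in DKO, and Gzme to Gzmc between them stay near the floor in both groups.

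The sequences before the start sites are shown for Gzma and Gzmb, the genes with the largest differences, and for Gzmc and Gzmd, the dim members of the same cluster. RefSeq promoter sequences of build GRCm38.p6 matched 9 of the 10 genes, all but Ctsw, with 10 windows in all because Gzmm has 2. The 250 bases before each start site were searched on both strands for 7 motifs. These were the NR4A response element NBRE (AAAGGTCA), the T-box (TCACACC) and RUNX (TGTGGT) motifs, the cyclic AMP response element (TGACGTCA), AP-1 (TGANTCA), STAT (TTCNNNGAA) and the TATA box (TATAAA). Capitals mark matches, and 0 of the matches overlap each other. Windows, all on the minus strand, are chr13:113100982-113101231 for Gzma, chr14:56262335-56262584 for Gzmb, chr14:56234658-56234907 for Gzmc and chr14:56132594-56132843 for Gzmd.
Gzma: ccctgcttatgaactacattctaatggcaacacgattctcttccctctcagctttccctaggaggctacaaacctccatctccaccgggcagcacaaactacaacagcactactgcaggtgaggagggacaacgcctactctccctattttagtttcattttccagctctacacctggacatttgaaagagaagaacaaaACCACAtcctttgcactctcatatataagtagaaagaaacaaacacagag
Gzmb: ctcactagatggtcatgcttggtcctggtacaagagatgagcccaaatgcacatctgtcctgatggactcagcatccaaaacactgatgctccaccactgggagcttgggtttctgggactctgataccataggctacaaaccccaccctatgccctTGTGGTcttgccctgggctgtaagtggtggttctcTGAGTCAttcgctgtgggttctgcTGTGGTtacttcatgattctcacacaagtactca
Gzmc: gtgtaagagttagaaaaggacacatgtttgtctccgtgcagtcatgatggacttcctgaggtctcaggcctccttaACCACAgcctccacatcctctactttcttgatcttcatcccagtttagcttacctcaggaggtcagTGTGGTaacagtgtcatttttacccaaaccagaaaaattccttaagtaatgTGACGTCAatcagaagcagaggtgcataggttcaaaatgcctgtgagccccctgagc
Gzmd: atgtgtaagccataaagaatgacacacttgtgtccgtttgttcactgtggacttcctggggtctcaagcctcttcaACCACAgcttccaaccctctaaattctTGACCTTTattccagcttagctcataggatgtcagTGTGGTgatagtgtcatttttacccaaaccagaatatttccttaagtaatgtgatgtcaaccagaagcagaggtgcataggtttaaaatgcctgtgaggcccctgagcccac

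RUNX letters were found in 7 of the 10 windows, those of Gzma, Gzmb, Gzmc, Gzmd, Prf1, Nkg7 and 1 of the Gzmm windows, and in 14.0% of all 32851 promoter windows. They occurred both in the genes that were high in DKO and in Gzmd, which was at the floor. The capitals in the Gzmb window are 2 RUNX matches and 1 AP-1 match (AP-1 letters are in 6.75% of all windows). The NBRE letters were found only in the Gzmd window among the members (1.34% of all windows), and the cyclic AMP response element only in that of Gzmc (1.55%). T-box letters were in windows of Nkg7, Gzmm and Gzmk (3.33%), STAT letters in those of Nkg7 and Gzmm (7.02%), and TATA letters in 0 of the 10 (12.4%). The windows of Gzmc and Gzmd were 81.3% identical in a global alignment and those of Gzmd and Gzme 94.8%, so their matches are not independent. The Gzmb window was 50.2% identical to that of Gzmc and 47.3% to that of Gzmd. A match is a description of letters, not a bound site.

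By the rule set for likeness, genes were ranked by Pearson correlation of log2(signal + 16) over the 6 arrays with each of the 2 members of highest mean, Gzma and Prf1. The gene most like Gzma was Mcpt8 (r = 0.997), followed by the chemokine gene Ccl9 (0.996), Rbms1 (0.995), Anapc15 (0.993) and Mtmr1 (0.993). These arrays share the difference between the groups, which enters each correlation: Ccl9 went from a mean of 1098 in WT to 3623 in DKO, and Rbms1 from 2286 to 5858. The genes most like Prf1 were Slc35f5 (0.985), E2f1 (0.985), Gpalpp1 (0.978), Usp9x (0.976) and Ccp110 (0.974), with log2 differences from 0.03 to 0.17.

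Other genes of the cytotoxic pathway, and granule proteases that neighbour Gzmb, were taken from 6 lists, with earlier results of these data known. The lists were drawn up from known roles, and for the proteases also from their place in the cluster. Genes of all 6 lists are called pathway genes. Of 98 listed genes, 87 had a probe set named for them alone and 69 were tested. In DKO 10 of the 69 rose (14.5%) and 0 fell (limma, adjusted over the whole table), against 1.08% and 0.633% of all 11529 tested genes. At an unadjusted p under 0.05, 26 were higher and 3 lower. The share of all tested genes at that unadjusted threshold was not worked out. Nothing is therefore read from these counts or from the unadjusted counts of single lists below. The 10 rises include the cluster proteases Ctsg and Mcpt8, and Mcpt8 is also listed as a mast cell and basophil marker. The count of rises was 7, 13 and 8 without WT replicates 1, 2 and 3, and 5, 6 and 3 without DKO replicates 1, 2 and 3, so each of the DKO arrays bears on it. It was 3 without an intensity trend in the variance.

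Among the inducers of cytotoxic effectors, 4 of 20 tested genes rose, and the median log2 difference was 0.73 against -0.01 over all tested genes. Tbx21 encodes T-bet, a transcription factor that activates granzyme and perforin genes. It rose from 13.6, 58.4 and 45.5 to 461.8, 1024.6 and 1441.9 (log2 4.13 ± 0.51, adjusted p = 0.00233), with no overlap. The related T-box factor gene Eomes rose by 2.79 ± 0.47 (adjusted p = 0.0146). Eomes was under the limit on all 3 WT arrays, and Tbx21 on 2, so their tests, like that of Gzmb, rest on their DKO signals. Id2, which innate lymphocytes need for their development, rose by 2.54 ± 0.37 (adjusted p = 0.00614), and the transcription factor gene Bhlhe40 by 1.93 ± 0.29 (adjusted p = 0.00776). Tbx21 passed whichever array was left out, Id2 in 5 of 6 such fits, Bhlhe40 in 4 and Eomes in 3. The other 16 did not pass. Of these, Runx3, a RUNX factor of killer T cells, had a difference of 0.25 ± 0.18 (adjusted p = 0.590). Of the 20 tested genes 14 had a positive difference. The most negative were Il21r (-0.88 ± 0.36, adjusted p = 0.293) and Stat4 (-0.53 ± 0.29, adjusted p = 0.427).

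Cytotoxic lymphocytes also secrete cytokines and chemokines, and 3 of 10 tested genes of that list rose (median 1.28). The chemokine gene Ccl5 rose from 127.1, 321.0 and 255.8 to 1730.2, 1135.7 and 2981.9 (log2 2.95 ± 0.41, adjusted p = 0.00439). Ifng, which encodes interferon gamma, rose from 6.5, 10.0 and 79.1 to 259.0, 424.2 and 463.2 (3.34 ± 0.57, adjusted p = 0.0161), with 2 WT arrays under the limit. Fgl2, a fibrinogen-like protein, rose by 2.21 ± 0.46 (adjusted p = 0.0409). With an array left out, Ccl5 passed in 6 of 6 fits, Ifng in 2 and Fgl2 in 0.

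Of 20 tested genes that load, process and release granules 1 rose, and the median was 0.18. It was Cst7, cystatin F, an inhibitor of granule cathepsins, at 1.64 ± 0.36 (adjusted p = 0.0487), and its call was lost whichever array was left out. Ctsc, the protease that activates granzymes, did not pass at 0.84 ± 0.25 (adjusted p = 0.143), although all DKO arrays were above all WT arrays. Srgn, the proteoglycan that packs granzymes, was bright in both groups and differed by 0.09 ± 0.14 (adjusted p = 0.824).

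None of the 5 tested serpins, granzyme inhibitors and their relatives, passed (limma). At an unadjusted p under 0.05, 1 was higher and 1 lower. The smallest p values were those of Serpini1, neuroserpin, at -1.34 ± 0.34 (adjusted p = 0.0824), and Serpinb1a, an inhibitor of neutrophil proteases, at 0.57 ± 0.23 (adjusted p = 0.282). Neuroserpin is not known as a granzyme inhibitor. Serpinb9, the inhibitor of granzyme B, was at 0.53 ± 0.43 (adjusted p = 0.622). Among the death ligands, death receptors and caspase steps 0 of 11 passed (limma), with 2 higher and 0 lower at an unadjusted p under 0.05. The smallest p values were those of Cycs, cytochrome c, at 0.70 ± 0.16 (adjusted p = 0.0611), and Bid, a granzyme B substrate, at 0.91 ± 0.33 (adjusted p = 0.226). The Fas receptor gene Fas was too dim to be tested, with signals between 17.8 and 55.2.

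**Figure D4:**
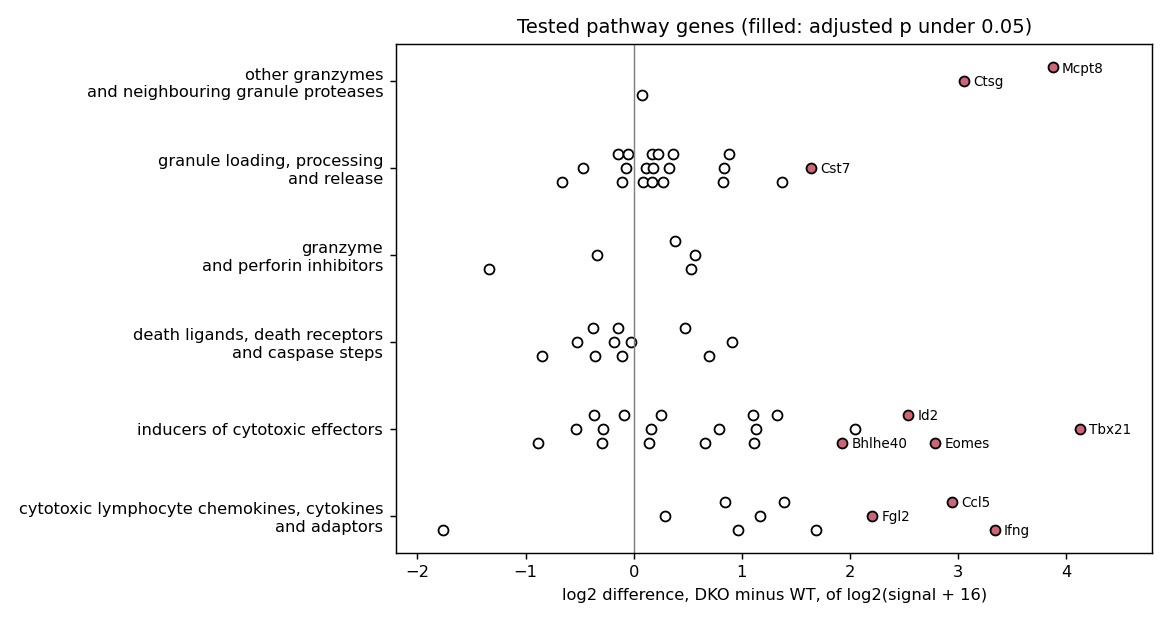
Each point is 1 tested pathway gene, placed by its log2 difference, DKO minus WT, of log2(signal + 16), in 6 lists by role or place in the cluster. The 10 filled, named points passed (adjusted p under 0.05), all higher in DKO: 4 are inducers, 3 are cytokines and related genes, 2 are cluster proteases and 1 is a granule gene.

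Markers of several cell types moved with Gzma and Gzmb. Of 8 NK cell markers with a probe set of their own 3 were tested and 1 passed, Eomes, named above. Klrd1, at 2.30 ± 0.52 (adjusted p = 0.0542), and Ncr1, at 2.14 ± 0.56 (adjusted p = 0.0979), did not pass. The summed signal of the 8 was 127 to 278 in WT and 1148 to 1584 in DKO, and Klra8 was dim everywhere. Of 12 T cell markers 10 were tested and 4 rose: Thy1 (2.36 ± 0.33, adjusted p = 0.00545), Cd3e (3.11 ± 0.46, adjusted p = 0.00706), Cd3d (2.43 ± 0.44, adjusted p = 0.0208) and Cd3g. With an array left out Thy1 passed in 6 of 6 fits, Cd3e and Cd3d in 3 and Cd3g in 2, and Cd3e was under the limit on all 3 WT arrays. The list's sum was 3319 to 4877 in WT and 5255 to 7143 in DKO. Most of the WT sum came from Cd247, the brightest marker of the list, which did not rise. Its WT signals were 4061.8, 2430.7 and 3446.9 and its DKO signals 2136.8, 3367.0 and 1997.2 (-0.41 ± 0.25). The other 9 of the 10 tested markers had positive differences. Cd8b1, a chain of the killer T cell coreceptor, was under the limit on every array, at 5.4 to 39.3.

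Mast cell and basophil markers moved too, with 5 of 8 tested higher and a sum of 1745 to 1950 in WT against 8616 to 11620 in DKO. Ms4a2 (5.38 ± 0.33, adjusted p = 1.59e-05), Mcpt8 and Cpa3 (3.65 ± 0.40, adjusted p = 0.00103) had the smallest p values and passed in 6 of 6 fits with an array left out. Fcer1a, under the limit on all 3 WT arrays, passed in 3 such fits and Hdc in 2, and Tpsab1 was under the limit on every array. For group 2 innate lymphoid cells 0 of 6 passed (limma; 1 higher at an unadjusted p under 0.05), the sum was 2512 to 2766 against 3235 to 4291, and Il5 was under the limit on every array. Klrg1, at 1.69 ± 0.42 (adjusted p = 0.0789), had that list's smallest p. Of the 6 tested genes it was the only 1 whose groups did not overlap, and it is also in the list of cytotoxic lymphocyte cytokines and chemokines. Of 8 plasmacytoid dendritic cell markers tested 1 rose, Irf8 (2.07 ± 0.37, adjusted p = 0.0194), which passed in 2 of 6 fits with an array left out. The other 7 did not pass, and Spib (-1.08 ± 0.54), Ccr9 (-0.66 ± 0.60) and Tcf4 (-0.40 ± 0.19) had negative differences. The sums of the list overlapped, at 6050 to 7221 and 6584 to 8933. In the B lineage and plasma cell list 2 of 8 rose, the antibody genes Igha (4.99 ± 0.40, adjusted p = 1.16e-04) and Jchain (4.13 ± 0.38, adjusted p = 3.28e-04). The other 6 did not pass. The B cell genes Cd79b (-1.19 ± 0.38, adjusted p = 0.164) and Ebf1 (-1.27 ± 0.43, adjusted p = 0.199) and the plasma cell gene Sdc1 (-0.74 ± 0.34, adjusted p = 0.351) had the most negative differences of the list. At an unadjusted p under 0.05, 3 were higher and 3 lower, and the median of the 8 was -0.18. The sum was 4831 to 7967 in WT against 20838 to 50966 in DKO, and without Igha and Jchain, left out after their values were seen, 3973 to 6225 against 3178 to 6727. Neutrophil markers overlapped, with 0 of 9 past the threshold (limma; 0 at an unadjusted p under 0.05).

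Markers of stem and early progenitor cells moved the other way. Of 8 tested 6 fell, among them Mecom (-1.66 ± 0.22, adjusted p = 0.00390), Mllt3 (-1.29 ± 0.18, adjusted p = 0.00458) and Hlf (-1.33 ± 0.21, adjusted p = 0.00936), and the sum was 26568 to 32438 in WT and 11934 to 13130 in DKO. Of the 6 fits that leave out an array, Meis1 passed in 1, Flt3 in 3, Procr and Hlf in 5, and Mllt3 and Mecom in 6. All 6 calls were lost without an intensity trend in the variance. Stem cell markers were thus present in both groups. Ly6a, which encodes the sort marker Sca1, was not analysed here. The part that any of these cell types has in the signals of Gzma, Gzmb and the other effectors was not tested.

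**Figure D5:**
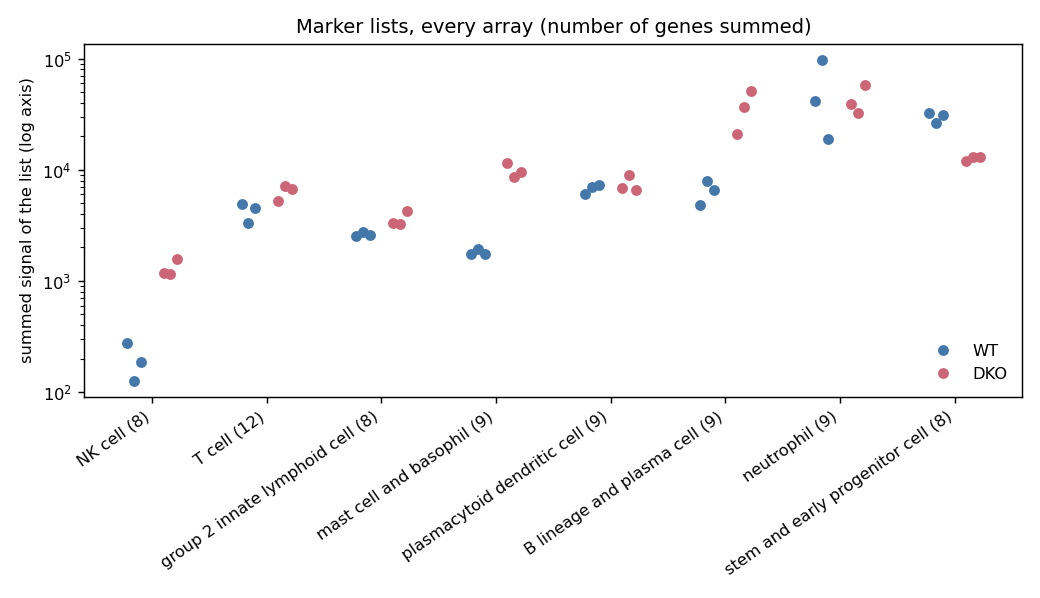
Summed signal of each marker list is plotted on a log axis with 1 point per array and the number of summed genes in parentheses. WT and DKO do not overlap for the NK cell, T cell, group 2 innate lymphoid cell, mast cell and basophil, B lineage and plasma cell, and stem and early progenitor cell lists, and overlap for plasmacytoid dendritic cells and neutrophils. Without Igha and Jchain the sums of the B lineage and plasma cell list overlap.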

How the data were processed

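The authors deposited 1 linear intensity value (signal) per probe set and array, made with MAS5 (version not stated) per the submitters' processing notes. The 2% trimmed mean of every array was 500, so that scaling was kept. All value columns carried a sample of the labels, and 0 were of other samples. Control probe sets (64) were left out of 45101. Of the 45037 others, 34945 have 1 symbol in the platform annotation, 932 several and 9160 none. Symbols come from that annotation, gene order and promoters from RefSeq (GRCm38.p6); the array files name no build.

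On log2(signal + 16), which understates changes of dim genes, probe sets whose mean was among the lowest 40% were left out. The remaining 27022 were fitted genome-wide with limma 3.58.1 in R 4.3.3 (lmFit, then eBayes with trend) as DKO minus WT, two-sided, with Benjamini-Hochberg adjusted p-values. Members under that limit were read from the fit of all probe sets. A list gene was represented by its brightest probe set. Tested on simulated data for DKO against WT (27022 probe sets), the fit recovered 8%, 52%, 88% and 92% of 50 probe sets each changed by log2 1, 2, 3 and 4, with 6 false calls.

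Members, lists and tests were chosen with earlier results of these data known. Named are all member probe sets, the passed genes of each pathway list (up to 4 by smallest p, else the 2 with the smallest p), up to 3 of each marker list by smallest p, and 5 most alike genes. Runx3, Il21r, Stat4, Ctsc, Srgn, Serpinb9, Fas, Cma1, Cd3g, Cd247, Cd8b1, Fcer1a, Hdc, Spib, Ccr9, Tcf4, Cd79b, Ebf1, Sdc1, Procr, Flt3, Meis1 and the dim markers were named after their values were seen. Alternatives were offsets of 1 and 64, no filter or one of 60%, quantile normalization, median centring, no trend, quality weights for arrays, leaving out each array, blocking on the replicate number, a threshold of 0.10 and averaging the probe sets of a gene. Sequences were aligned with Biopython 1.88 and figures drawn with matplotlib 3.10.9 in Python 3.11.15.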

Additional observations from a re-analysis of the deposited data

How the results depend on the processing

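Gzma and Gzmb both passed in 14 of 15 other fits and at a threshold of 0.10. With a stricter filter, at the lowest 60%, 1 member passed, Gzma, because Gzmb was no longer tested. With an array left out both passed in 6 of 6 fits, at 3.51 to 4.53 for Gzma and 4.29 to 5.11 for Gzmb, and the count of members stayed at 2. Of 195 member values over 15 settings, 187 moved by less than the SD between arrays, 8 by more and 0 changed sign among the passed members. The 8 belonged to Gzmb, Gzmc, Gzmd and Fasl, 7 with another offset and 1 with median centring. Among members that did not pass, some differences near 0 took either sign with an array left out. These were Gzmm (-0.24 to 0.41), Prf1 at 1450335_at (-0.05 to 0.29) and both Gzmd probe sets.

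The whole table gave 370 passed probe sets, 218 higher and 152 lower (58.9% higher), but 208 with no filter, 88 without an intensity trend, 563 with array quality weights, 738 at a threshold of 0.10 and 104 to 469 with an array left out. Median centring moved the median difference of all tested probe sets by 0.11 and gave 218 higher and 96 lower (69.4% higher). Rises among the 69 pathway genes were 10, but 3 without a trend, 16 with array quality weights, 16 at a threshold of 0.10, and 3 to 13 with an array left out. In place of 0 falls there was 1 at a threshold of 0.10 and 1 with the mean over probe sets, Serpini1 in both.

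Same-numbered WT and DKO arrays did not deviate together (correlations of deviations 0.142, -0.0306 and 0.0531), and no label pairs them. With a replicate block the whole table gave 312 passed probe sets, the pathway lists 9 rises and the members 2. Depth has no count here; dim probe sets, among them Gzmc, Gzmd and Gzmm, carry values near the floor that cannot show small differences. The cause of these shifts was not tested.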

Other observations

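Among the dim NK cell markers outside the main test, Klrk1, an activating receptor of NK cells and killer T cells, had signals of 16.5, 1.9 and 7.4 in WT and 140.2, 142.0 and 213.4 in DKO. In the fit of all probe sets its log2 difference was 2.90 ± 0.50 (limma, adjusted p = 0.0360). Klrc1, at 0.9 to 21.0 and, in DKO, 58.1 to 102.3, and Klre1, at 0.8 to 38.0 and 68.3 to 132.8, separated without overlap and did not pass there (adjusted p = 0.214 and 0.314). Il13, a cytokine gene of group 2 innate lymphoid cells and basophils, also separated, at 7.2 to 23.0 and 74.1 to 88.8 (1.83 ± 0.46, adjusted p = 0.144). S1pr5, a receptor that lets NK cells leave the marrow, went the other way from most genes of its list, with 453.6 in WT replicate 2 and 1.1 to 96.6 on the other arrays (-1.76 ± 0.77, adjusted p = 0.324). These genes were picked after their values were seen.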
